A study of Mus musculus with 6 samples.

Results

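The genes examined here were 10 interferon-gamma inducible genes, of which 9 encode GTPases. The guanylate-binding proteins *Gbp2*, *Gbp3*, *Gbp5*, *Gbp6* and *Gbp7* belong to the GBP family, and *Irgm1*, *Irgm2*, *Igtp* and *Iigp1* belong to the immunity-related GTPases, the IRG family. *Irf1* encodes a transcription factor of the same response and is no GTPase. Members were taken as the rows of the expression table that carry these gene symbols, which gave 11 rows out of 34745, since *Gbp6* is listed under 2 Ensembl identifiers. All 11 rows passed the filter on low counts and were among the 13892 genes tested.

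Interferon-gamma binds the receptor chains *Ifngr1* and *Ifngr2*, and the kinases *Jak1* and *Jak2* pass the signal on to DNA elements named GAS. *Irf1* is among the first genes to rise, its protein binds a second element, ISRE, and both elements are common in front of GBP and IRG genes. The proteins bind membranes of vacuoles that hold microbes, where effector GTPases such as IIGP1 break the vacuole and regulatory members such as IRGM1 keep the effectors off host membranes. In liver and tumors, T cells and NK cells are known sources of interferon-gamma, and many cell types, leukocytes and hepatocytes among them, can respond to it.

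RNA was sequenced from 3 liver tumors of Prmt3f/f mice, which carry floxed *Prmt3* and serve as controls, and from 3 liver tumors of Prmt3LKO mice, in which Alb-Cre, driven by the albumin promoter, deletes *Prmt3* in hepatocytes and leaves it in other cells. All mice had received DEN, a liver carcinogen, at 25 mg/kg at 2 weeks of age, then 10% CCl4 in oil at 0.5 ml/kg from 6 weeks with 2 injections per week, and were sacrificed at 26 weeks. Coordinates are of GRCm38, the build of the table. The tumor numbers are those of the labels, 7, 66 and 71 for Prmt3f/f and 92, 93 and 94 for Prmt3LKO. The labels do not say whether the tumors of a group came from separate mice, so the p-values measure the spread between these tumors. Total counts were between 18440244 and 27976598 per tumor. Levels are given as CPM, counts scaled to a common library size, and a count of 0 allows up to 0.105 to 0.171 CPM, from 3 counts, which covers counting error only. *Prmt3* was at 6.595, 8.48 and 10.2 CPM in Prmt3f/f tumors and at 2.80, 2.03 and 3.82 CPM in Prmt3LKO tumors, without overlap. Of the 9 hepatocyte markers in the table, all were detected in every tumor, led by *Alb*, the gene of serum albumin, with 78.8% of their summed CPM.

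The first comparison asked whether the level of these genes differed between Prmt3LKO and Prmt3f/f tumors. Every Prmt3LKO tumor lay below every Prmt3f/f tumor for 9 of the 11 rows, where 6.59% of all genes tested did so, and for 0 rows every Prmt3LKO tumor lay above, where 5.58% of genes did. The exceptions were *Iigp1* and *Irf1*. By the quasi-likelihood test of edgeR, 9 of 11 rows were lower in Prmt3LKO tumors at an unadjusted p under 0.05, against 4.37% of all genes tested, and 0 were higher, against 2.20%. The median log2 fold change of the 11 rows was -0.69, beside 0.0004 over all genes tested. The limits of the study were an adjusted p below 0.05 and a fold of 2 or more up or of 0.5 or less down. In edgeR's quasi-likelihood test, 0 of the rows and 0 of the 13892 genes passed them. At these limits the study itself reported genes in both directions, more of them lower, and its methods name no test across genes. The adjusted p of the rows was between 0.592 and 0.867 with edgeR's quasi-likelihood test and Benjamini-Hochberg adjustment. With DESeq2, *Gbp2* and *Gbp5* passed these limits, where 0.310% of genes were called lower, and with edgeR's exact test the same 2 genes passed, where 0.252% were. Of the markers described at the end, 8 of 10 of all leukocytes and 9 of 12 of T cells were also lower in Prmt3LKO tumors at an unadjusted p under 0.05 in the edgeR test, and their part in these differences was not tested. In bulk tumors, fewer cells of a type and less RNA per cell cannot be told apart.

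The count at an unadjusted p leaned on single tumors. Without Prmt3f/f tumor 71, the highest tumor for 10 of the 11 rows, 3 rows were lower at an unadjusted p under 0.05, against 5.12% of all genes, and the median log2 fold change was -0.46. The 3 rows were *Gbp2*, *Gbp3* and *Gbp5*. Without Prmt3LKO tumor 92, 5 rows were lower, against 2.93% of all genes, and without tumor 94, 5 rows were lower, against 4.24%. With each tumor left out, the log2 fold change of all 11 rows was below 0, though only -0.03 for *Iigp1* without Prmt3f/f tumor 7. In the heat map of centred levels, tumor 71 is the darkest column above the mean except for *Iigp1*, and the 3 Prmt3LKO tumors lie below the mean in all rows but *Irf1*.

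**Figure D1:**
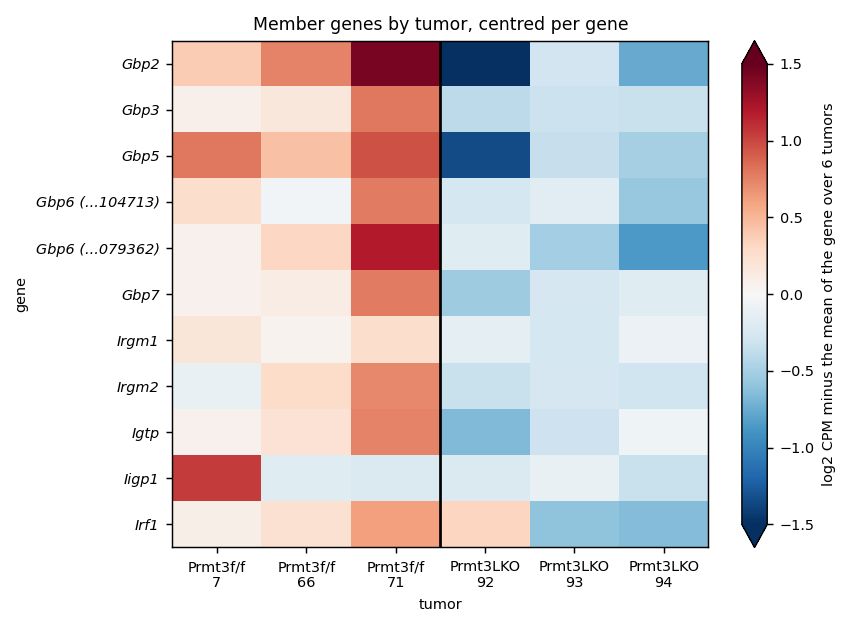
Log2 CPM of the 11 rows (y axis) in the 6 tumors (x axis), minus the mean of each row over the tumors; red is above that mean, blue below, and the color scale ends at 1.5 in both directions. Prmt3f/f tumor 71 is highest in 10 rows, tumor 7 stands out for *Iigp1*, and Prmt3LKO tumor 92 is above the mean for *Irf1* alone.

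Promoter sequences were searched for the letters of both elements. Windows from 250 bases before to 50 bases after the RefSeq start, on GRCm38.p6, were searched for 8 of the 10 genes, with a second start for *Gbp3* and *Irf1*. There was no window for *Gbp6*, and *Iigp1* was left out of the search. A core of the ISRE (GAAANNGAA on either strand) was present in 7 of these 10 windows, against 8.56% of all 32851 RefSeq promoter windows of the same length. The GAS letters (TTCNNNGAA, which read the same on both strands) were present in 5 of 10, against 8.30% of all windows. *Gbp5*, *Gbp7*, *Igtp* and *Irgm2* held both, as did 1.07% of all windows. These matches describe the letters of the windows and not whether a factor bound there. In the windows below, capitals mark the matches. *Gbp2* and *Gbp5* are shown as the members with the largest difference between groups, and *Irgm1* as the member with the smallest. *Igtp* and *Irgm2* are shown as neighbors that share a stretch, and *Irf1* as the transcription factor.
Gbp2, chr3:142620413-142620712, plus strand: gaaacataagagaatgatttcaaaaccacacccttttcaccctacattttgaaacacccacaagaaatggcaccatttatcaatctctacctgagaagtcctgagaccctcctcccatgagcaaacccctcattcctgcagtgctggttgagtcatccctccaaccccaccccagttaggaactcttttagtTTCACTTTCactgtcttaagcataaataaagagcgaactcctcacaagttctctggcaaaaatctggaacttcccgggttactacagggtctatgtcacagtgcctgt
Gbp5, chr3:142496684-142496983, plus strand: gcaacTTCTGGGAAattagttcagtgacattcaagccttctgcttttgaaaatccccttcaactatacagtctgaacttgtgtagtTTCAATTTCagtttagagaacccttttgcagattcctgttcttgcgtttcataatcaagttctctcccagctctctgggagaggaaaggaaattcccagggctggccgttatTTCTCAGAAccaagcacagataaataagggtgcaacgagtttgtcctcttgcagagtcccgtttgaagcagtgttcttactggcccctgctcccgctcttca
Irgm1, chr11:48871371-48871670, minus strand: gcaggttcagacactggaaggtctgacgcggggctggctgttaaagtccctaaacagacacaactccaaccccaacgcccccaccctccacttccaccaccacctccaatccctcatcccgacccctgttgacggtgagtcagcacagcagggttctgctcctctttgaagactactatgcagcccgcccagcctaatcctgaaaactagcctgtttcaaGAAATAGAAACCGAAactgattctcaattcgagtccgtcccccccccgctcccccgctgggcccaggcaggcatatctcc
Igtp, chr11:58199306-58199605, plus strand: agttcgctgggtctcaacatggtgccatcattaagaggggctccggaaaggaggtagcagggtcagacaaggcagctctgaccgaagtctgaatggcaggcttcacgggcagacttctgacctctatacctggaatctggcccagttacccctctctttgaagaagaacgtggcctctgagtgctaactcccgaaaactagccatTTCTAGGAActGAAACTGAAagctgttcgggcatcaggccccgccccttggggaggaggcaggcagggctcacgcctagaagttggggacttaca
Irgm2, chr11:58214727-58215026, plus strand: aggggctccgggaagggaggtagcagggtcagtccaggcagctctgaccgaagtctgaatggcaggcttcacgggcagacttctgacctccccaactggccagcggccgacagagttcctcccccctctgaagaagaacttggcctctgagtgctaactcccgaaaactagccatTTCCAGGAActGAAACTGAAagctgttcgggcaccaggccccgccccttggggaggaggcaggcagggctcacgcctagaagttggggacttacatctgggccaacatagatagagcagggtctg
Irf1, chr11:53769764-53770063, plus strand: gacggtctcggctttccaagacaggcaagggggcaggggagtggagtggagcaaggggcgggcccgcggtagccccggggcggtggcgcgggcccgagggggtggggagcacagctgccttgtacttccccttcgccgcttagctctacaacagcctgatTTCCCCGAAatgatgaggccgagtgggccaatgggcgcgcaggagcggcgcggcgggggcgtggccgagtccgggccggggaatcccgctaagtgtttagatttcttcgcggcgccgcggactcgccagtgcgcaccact

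Counted from the RefSeq start, the ISRE core of *Gbp2* began at -58, and that of *Gbp5* at -164 with GAS letters at -245 and -52. In *Irgm1*, 2 overlapping ISRE cores began at -30 and -24, and no GAS letters were found. *Igtp* held GAS letters at -45 and an ISRE core at -34. *Irgm2* held the same arrangement at -75 and -64, and the longest run shared by the windows of both genes was 61 bases. *Irf1* held GAS letters at -90 and no ISRE core. *Gbp2* and *Irgm1* held the ISRE core without GAS letters, as did a window of *Gbp3*. A link between these letters and the fold changes was not tested.

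Among the guanylate-binding proteins, *Gbp2* (ENSMUSG00000028270, chr3:142620602-142638008), which coats microbial vacuoles, differed most. It was at 21.4, 27.5 and 44.1 CPM in Prmt3f/f tumors 7, 66 and 71 and at 5.77, 13.5 and 9.74 CPM in Prmt3LKO tumors 92, 93 and 94. Every Prmt3LKO tumor lay below every control, with tumor 71 highest and tumor 92 lowest. The Prmt3LKO mean was 31.2% of the control mean (log2 fold change -1.68 with a standard error, SE, of 0.37, unadjusted p = 0.00206, adjusted p = 0.592, edgeR's quasi-likelihood test). With DESeq2 its adjusted p was 0.00623, and with edgeR's exact test 0.0135. With each tumor left out, its log2 fold change stayed between -1.996 and -1.33.

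*Gbp5* (ENSMUSG00000105504, chr3:142493978-142522344), known for promoting assembly of the NLRP3 inflammasome, came next. It was at 8.81, 6.90 and 9.84 CPM in Prmt3f/f tumors and at 1.999, 4.01 and 3.62 CPM in Prmt3LKO tumors. The groups did not overlap, and tumor 92 was again the lowest. The Prmt3LKO mean was 37.7% of the control mean, and the log2 fold change was -1.40 (SE 0.29, unadjusted p = 0.00163, adjusted p = 0.592, edgeR's quasi-likelihood test). The adjusted p was 0.0134 with DESeq2. On FPKM with a pseudocount of 1, where its low level shrinks the fold, the log2 fold change was -0.49.

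*Gbp3* (ENSMUSG00000028268, chr3:142560026-142573209), which lies between them on the same strand with *Gbp7* next to it, was at 15.3, 16.4 and 25.1 CPM in Prmt3f/f tumors and at 11.02, 11.6 and 11.5 CPM in Prmt3LKO tumors. The Prmt3LKO tumors were nearly level, with a coefficient of variation of 2.74%, while tumor 71 stood above the other controls. Its log2 fold change was -0.74 (SE 0.21, unadjusted p = 0.00924, edgeR's quasi-likelihood test) and -0.48 without tumor 71 (unadjusted p = 0.0239 in the same edgeR test). *Gbp7* (ENSMUSG00000040253, chr3:142530342-142550149), which has been linked to the phagocyte oxidase at vacuoles, was at 24.9, 25.6 and 40.8 CPM in Prmt3f/f tumors and at 16.5, 20.02 and 20.9 CPM in Prmt3LKO tumors. The gap between its groups was narrow, from 20.9 CPM in tumor 94 to 24.9 CPM in tumor 7. Its log2 fold change was -0.67 (SE 0.22, unadjusted p = 0.0186, edgeR's quasi-likelihood test) and -0.40 without tumor 71 (unadjusted p = 0.0571 in the same edgeR test). Its exons share 11.3% of their bases with the predicted gene Gm43802 on the same strand.

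*Gbp6* was listed under 2 identifiers whose loci overlap on the minus strand of chromosome 5. The row ENSMUSG00000104713 (chr5:105270702-105293698) was at 9.32, 7.55 and 13.3 CPM in Prmt3f/f tumors and at 6.51, 6.94 and 5.27 CPM in Prmt3LKO tumors (log2 fold change -0.69, SE 0.25, unadjusted p = 0.0249, edgeR's quasi-likelihood test). The row ENSMUSG00000079362 (chr5:105214907-105293695) was at 4.47, 5.31 and 9.77 CPM in Prmt3f/f tumors and at 3.77, 3.02 and 2.36 CPM in Prmt3LKO tumors (log2 fold change -1.10, SE 0.35, unadjusted p = 0.0143, edgeR's quasi-likelihood test). Groups did not overlap in either row, and tumor 71 was the highest and tumor 94 the lowest in both. Without tumor 71 the log2 fold changes were -0.43 in the first row and -0.68 in the second (unadjusted p = 0.101 and 0.0573 in the same edgeR test). In GENCODE M21 the second identifier is named Gm43302, and it shares 41.6% of its exon bases with *Gbp10* and 40.05% with the first row, on the same strand. How the counting divided reads among them is not given in the sources used here, so these levels are uncertain. With 1 row per symbol in the same edgeR fit, 8 of 10 genes were lower at an unadjusted p under 0.05, where 4.37% of all genes tested were.

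**Figure D2:**
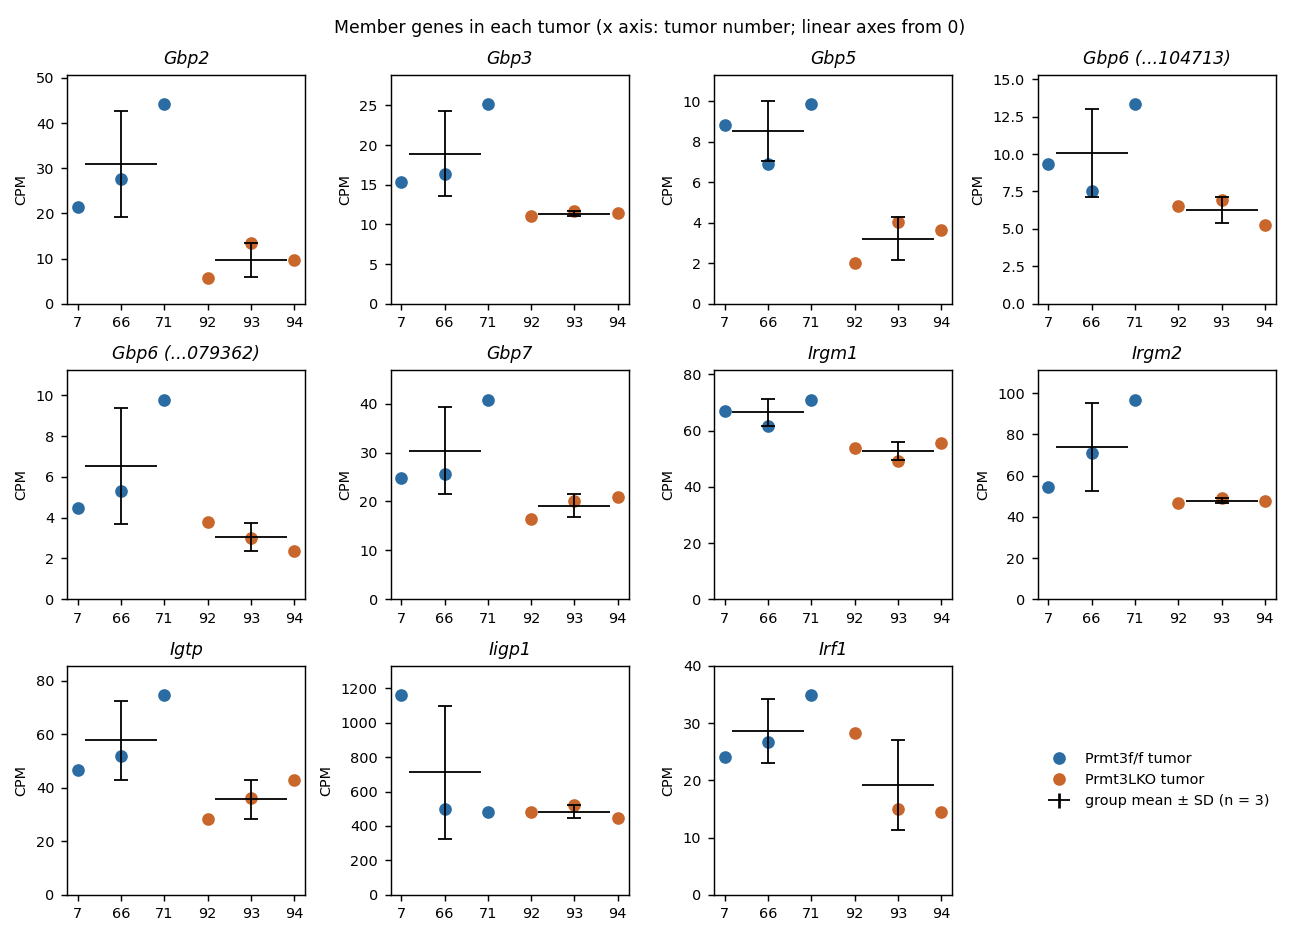
CPM (y axis, linear from 0) of the 11 rows in each tumor (x axis, tumor number); blue points are Prmt3f/f tumors, orange points Prmt3LKO tumors, and black bars the group mean ± SD (n = 3). The points of the groups do not overlap in 9 panels; in the *Iigp1* panel 1 control tumor at 1159 CPM stands apart, and in the *Irf1* panel tumor 92 lies among the controls.

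Among the immunity-related GTPases, the 3 regulatory members are given first. *Irgm1* (ENSMUSG00000046879, chr11:48861968-48871683), which also acts in autophagy and mitochondrial upkeep, was at 66.97, 61.6 and 70.9 CPM in Prmt3f/f tumors and at 53.7, 49.1 and 55.5 CPM in Prmt3LKO tumors. It had the smallest difference of the members and also the tightest controls, with a coefficient of variation of 7.04%. The Prmt3LKO mean was 79.4% of the control mean (log2 fold change -0.33, SE 0.13, unadjusted p = 0.0366, edgeR's quasi-likelihood test). With each tumor left out its log2 fold change stayed between -0.39 and -0.28, with an unadjusted p from 0.0452 to 0.109.

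*Irgm2* (ENSMUSG00000069874, chr11:58199618-58222779) was at 54.3, 70.9 and 96.8 CPM in Prmt3f/f tumors and at 46.7, 49.4 and 47.6 CPM in Prmt3LKO tumors. The control tumors spread widely while the Prmt3LKO tumors were nearly level, with coefficients of variation of 28.9% and 2.82%. Its log2 fold change was -0.63 (SE 0.21, unadjusted p = 0.0195, edgeR's quasi-likelihood test) and -0.39 without tumor 71 (unadjusted p = 0.0615 in the same edgeR test). *Igtp* (ENSMUSG00000078853, chr11:58199556-58207591), also called *Irgm3*, was at 46.6, 52.02 and 74.5 CPM in Prmt3f/f tumors and at 28.3, 36.1 and 42.8 CPM in Prmt3LKO tumors. Tumor 94, the highest Prmt3LKO tumor for this gene, came close to control tumor 7. The log2 fold change of *Igtp* was -0.69 (SE 0.23, unadjusted p = 0.0174, edgeR's quasi-likelihood test) and -0.46 without tumor 71 (unadjusted p = 0.0606 in the same edgeR test). *Igtp* and *Irgm2* lie on the same strand and share 162 exon bases, 8.01% of *Igtp* and 4.39% of *Irgm2*.

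*Iigp1* (ENSMUSG00000054072), an effector GTPase also called *Irga6*, was at 1159, 496 and 484 CPM in Prmt3f/f tumors and at 483, 521 and 444 CPM in Prmt3LKO tumors. Control tumor 7 was 2.39 times the median of the other 5 tumors, and those 5 tumors overlapped between the groups. The log2 fold change was -0.56 (SE 0.35, unadjusted p = 0.149, adjusted p = 0.867, edgeR's quasi-likelihood test). Without tumor 7 it was -0.03 (unadjusted p = 0.850 in the same edgeR test). Tumor 7 also had the highest level of *Spp1*, the osteopontin gene, at 4072 CPM against 184 to 977 CPM in the other tumors, whose part in the level of *Iigp1* was not tested.

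*Irf1* (ENSMUSG00000018899, chr11:53770014-53778374), the transcription factor, was at 24.1, 26.7 and 34.8 CPM in Prmt3f/f tumors and at 28.3, 14.97 and 14.4 CPM in Prmt3LKO tumors. Tumor 92 lay inside the range of the controls, and tumors 93 and 94 lay below all of them. The log2 fold change was -0.57 (SE 0.29, unadjusted p = 0.0852, adjusted p = 0.791, edgeR's quasi-likelihood test). It moved with single tumors on both sides, to -0.96 without tumor 92 (unadjusted p = 0.00354 in the same edgeR test) and to -0.40 without tumor 94 (unadjusted p = 0.241 in that edgeR test). Without tumor 71 it was -0.40 and without tumor 93 it was -0.42 (unadjusted p = 0.245 and 0.23 in the edgeR test). The predicted gene Gm17334, on the opposite strand, shares 3.395% of the exon bases of *Irf1*. In tumor 92 *Irf1* had its highest Prmt3LKO level, while *Gbp2*, *Gbp3*, *Gbp5*, *Gbp7*, *Irgm2* and *Igtp* had their lowest level of all 6 tumors there. For each of the 9 rows whose groups did not overlap, a two-sided exact permutation test on log2 CPM gave p = 0.1, the floor of a design of 3 against 3. The same exact test gave p = 0.4 for *Iigp1* and p = 0.3 for *Irf1*.

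Levels between genes were compared on FPKM, which the authors divided by gene length. *Iigp1* stood far above the rest, at 140 to 383 FPKM, between 9.95 and 40.5 times the next member in the same tumor. It made up 53.5% to 80.8% of the summed CPM of the 11 rows in a tumor, so any sum over these genes is mostly *Iigp1*. *Igtp* was at 5.24 to 14.8 FPKM, *Irgm1* at 6.98 to 9.88 FPKM and *Irgm2* at 6.40 to 14.2 FPKM. *Gbp2*, at 1.94 to 15.9 FPKM, was the highest of the guanylate-binding proteins by its median over tumors, followed by *Gbp7*, *Gbp3*, both rows of *Gbp6* and *Gbp5*. *Irf1* stood between *Gbp2* and *Gbp7*. *Gbp5* was lowest, at 0.190 to 1.002 FPKM. In this order the ranges over tumors of all neighbors overlapped except those of *Iigp1* and *Igtp*.

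The members varied together across tumors, apart from *Iigp1* and *Irf1*. Pearson's r between the log2 CPM of a row and the mean of the other rows, centred per gene, was between 0.885 and 0.973 over the 6 tumors for 9 rows. It was 0.614 for *Irf1* and 0.196 for *Iigp1*. The mean of the centred log2 CPM of all 11 rows was 0.26, 0.21 and 0.73 in Prmt3f/f tumors 7, 66 and 71 and -0.47, -0.31 and -0.42 in Prmt3LKO tumors 92, 93 and 94. These correlations are descriptions over 6 tumors that also differ by genotype. Among 12766 other genes with a mean of at least 1 CPM, the 5 whose log2 CPM correlated best with that mean were 2010315B03Rik (r = 0.991), *Rfx1* (0.983), *Tmco6* (0.982), *Timd4* (0.980) and *Gbp4* (0.980). *Rfx1* encodes a transcription factor that binds promoter X-box letters, *Timd4* encodes a phosphatidylserine receptor of resident macrophages, and *Gbp4* is a further guanylate-binding protein. In all, 68 genes had r of at least 0.9.

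Further GTPases were followed in a list of 21 genes, of which 18 were tested. Most are GBP and IRG genes, while *Gvin1*, *Gm4070* and *Gm1966* belong to the very large inducible GTPases, a separate family. The median log2 fold change of the list was -0.63, and 17 of the 18 values were below 0. At an unadjusted p under 0.05 (edgeR's quasi-likelihood test), 5 were lower and 0 were higher, and the groups of the same 5 genes did not overlap. With the filter on low counts, 4.37% of all genes tested were lower and 2.20% higher at that p, for this list and those below. Every Prmt3LKO tumor lay below every Prmt3f/f tumor for 6.59% of all genes tested and above for 5.58%. These shares also apply to this list and those below. With a tumor left out, between 2.93% and 5.12% of all genes were lower. *Tgtp1*, an effector GTPase also called *Irgb6*, was at 21.6, 26.01 and 52.3 CPM in Prmt3f/f tumors and at 6.11, 11.99 and 9.44 CPM in Prmt3LKO tumors (log2 fold change -1.86, SE 0.39). Its paralog *Tgtp2*, with which it may share reads, had -1.15 (SE 0.26). *Gbp4* was at 9.69, 10.4 and 16.4 CPM in Prmt3f/f tumors and at 4.51, 5.41 and 6.13 CPM in Prmt3LKO tumors (log2 fold change -1.19, SE 0.25). The other two were *Gm1966* (-1.20, SE 0.32) and 9930111J21Rik2 (-0.51, SE 0.22).

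Not every gene of the list was lower. *Gm4951*, the highest of the list in CPM, was at 75.8, 68.1 and 81.97 CPM in Prmt3f/f tumors and at 82.6, 67.5 and 71.3 CPM in Prmt3LKO tumors (log2 fold change -0.03, SE 0.15). *Irgq* had 0.06 (SE 0.16), and its groups overlapped. *Irgc1* had 0 counts in all tumors. Without Prmt3f/f tumor 71 the median of the list was -0.32, with 4 of 18 genes tested lower, against 5.12% of all genes. Without tumor 7 the median was -0.82, with 8 of 19 lower, against 4.91%. In the plot of fold changes, the list spans a wider range than the members and its lowest point is *Tgtp1*.

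**Figure D3:**
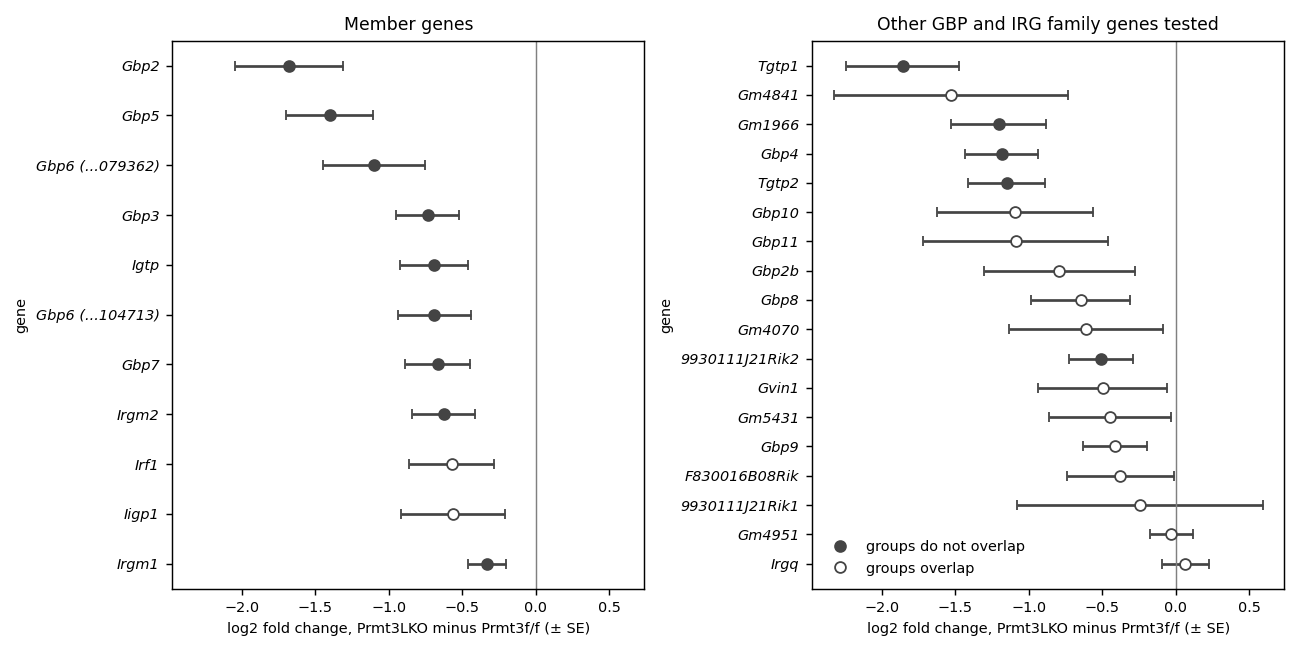
Log2 fold change of Prmt3LKO against Prmt3f/f tumors (x axis) with its SE (bars) for the 11 rows of the members (left) and the 18 genes tested from the list of further GTPases (right). The right panel includes *Gvin1*, *Gm4070* and *Gm1966*, which are neither GBP nor IRG genes. Filled points have groups that do not overlap; all members lie left of 0, from -1.68 for *Gbp2* to -0.33 for *Irgm1*, while *Gm4951* and *Irgq* lie near 0.

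Upstream of the GTPases, *Ifng*, the gene of interferon-gamma, was at or below 0.326 CPM in all tumors, with 2, 7 and 8 counts in Prmt3f/f tumors and 0, 2 and 4 counts in Prmt3LKO tumors, and it did not pass the filter on low counts. With no filter beyond 1 count, *Ifng* and the other 6 genes of its list, its inducers, were tested, and 0 were lower or higher at an unadjusted p under 0.05 in edgeR's quasi-likelihood test. With the filter, 3 genes of this list were tested and 1 was lower, *Ebi3*, a subunit of interleukin-27. Its log2 fold change was -0.79 (SE 0.33, unadjusted p = 0.0473, edgeR's quasi-likelihood test). Its groups did not overlap, at 0.902 to 2.21 CPM over the tumors. The receptor chain *Ifngr1* was at 66.2, 77.5 and 62.99 CPM in Prmt3f/f tumors and at 68.5, 89.9 and 51.2 CPM in Prmt3LKO tumors, and its groups overlapped. Log2 fold changes were 0.02 for *Ifngr1* (SE 0.22), -0.28 for *Ifngr2* (SE 0.20), -0.08 for *Jak1* (SE 0.15) and -0.30 for *Jak2* (SE 0.15). Of these 4 genes, the groups did not overlap for *Jak2* alone, and 0 passed an unadjusted p under 0.05 in edgeR's quasi-likelihood test.

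Besides *Irf1*, 7 transcription factors of the response are described here. Of these, 2 were lower at an unadjusted p under 0.05 and 0 were higher (edgeR's quasi-likelihood test), against 4.37% and 2.20% of all genes tested. The groups did not overlap in 4, all lower in Prmt3LKO tumors, where 6.59% of all genes tested were lower without overlap. Without Prmt3f/f tumor 71 or Prmt3LKO tumor 92 or 94, 1 was lower, and the median log2 fold change of the list was -0.40, or -0.22 without tumor 71. *Ciita*, the master regulator of MHC class II genes, was at 10.9, 10.1 and 9.06 CPM in Prmt3f/f tumors and at 5.20, 5.50 and 5.98 CPM in Prmt3LKO tumors (log2 fold change -0.85, SE 0.17). *Irf8*, a factor of myeloid cells, had -0.51 (SE 0.19). *Irf2* and *Nlrc5*, like *Ciita* and *Irf8* without overlap, had -0.40 (SE 0.18) and -0.29 (SE 0.15). Of 6 inhibitors of the signal, 0 were lower or higher at an unadjusted p under 0.05 (edgeR's quasi-likelihood test), and the groups did not overlap for *Ptpn6* alone (-0.23, SE 0.13). *Socs1*, itself induced by interferon-gamma, was at 1.34, 1.12 and 1.12 CPM in Prmt3f/f tumors and at 0.343, 0.406 and 1.26 CPM in Prmt3LKO tumors, with tumor 94 inside the range of the controls.

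Downstream targets outside the GTPases were split. Of 29 tested, 10 were lower and 0 higher at an unadjusted p under 0.05 (edgeR's quasi-likelihood test), against 4.37% and 2.20% of all genes tested. The median log2 fold change was -0.37. Without Prmt3LKO tumor 92, 5 were lower, and without Prmt3f/f tumor 7 the median was -0.16. The chemokine *Cxcl9*, a T cell attractant, was at 91.97, 113 and 185 CPM in Prmt3f/f tumors and at 27.6, 76.9 and 31.3 CPM in Prmt3LKO tumors (log2 fold change -1.52, SE 0.44). Tumor 71 was the highest for *Cxcl9*, as it was for most members. *Cxcl10* had -1.45 (SE 0.40), *Serpina3g* -1.08 (SE 0.18), and *Tap1*, a peptide transporter of antigen presentation, -0.68 (SE 0.21). Groups also did not overlap for the MHC class II genes *H2-Ab1* (-0.86, SE 0.27) and *Cd74* (-0.76, SE 0.22), for *Serpina3f* (-0.92, SE 0.32) and for the adhesion gene *Vcam1* (-0.54, SE 0.22). By contrast, *Psmb8* had -0.04 (SE 0.18), *Tap2* -0.05 (SE 0.14), *B2m* -0.12 (SE 0.21) and *H2-K1* 0.11 (SE 0.24), all with groups that overlapped.

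Genes that mark the response to type I interferons were set beside the members, as both responses act through the ISRE. Of 29 tested, 1 was lower and 1 was higher at an unadjusted p under 0.05 (edgeR's quasi-likelihood test), and the median log2 fold change was 0.05, with a range from -0.21 without Prmt3LKO tumor 92 to 0.11 without tumor 93. *Isg15* was at 12.8, 11.3 and 9.80 CPM in Prmt3f/f tumors and at 16.2, 11.6 and 9.54 CPM in Prmt3LKO tumors, with tumor 92 the highest. Groups did not overlap for *Zbp1* (-0.55, SE 0.22) and *Sp100* (-0.36, SE 0.19), lower in Prmt3LKO tumors, and *Bst2*, the gene past that p in the other direction, had 0.41 (SE 0.17). A test of the difference between this list and the members was not made. Of 22 genes whose proteins work with the GTPases at vacuoles and inflammasomes, 0 were lower and 2 higher at an unadjusted p under 0.05. Of all genes tested, 4.37% were lower and 2.20% higher. *Atg16l1*, of the autophagy machinery that loads the GTPases onto vacuoles, was at 24.3, 25.7 and 26.6 CPM in Prmt3f/f tumors and at 35.5, 33.99 and 37.9 CPM in Prmt3LKO tumors (log2 fold change 0.49, SE 0.12). The groups of *Traf6*, a ubiquitin ligase, did not overlap either (0.26, SE 0.15), and *Map1lc3b* had 0.96 (SE 0.35) with groups that overlapped.

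**Figure D4:**
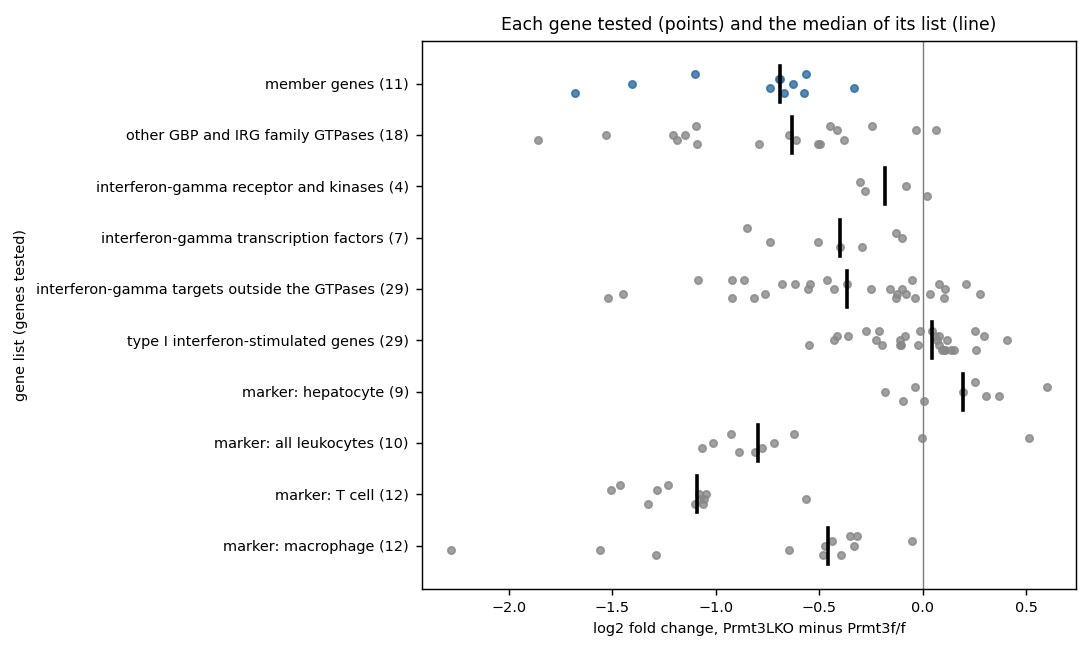
Log2 fold change of Prmt3LKO against Prmt3f/f tumors (x axis) for each gene tested (points) in 10 gene lists (y axis, number of genes tested in brackets), with the median of each list as a black line. The median is -0.69 for the members, -0.63 for the list of further GTPases, 0.05 for type I interferon-stimulated genes, -0.80 for markers of all leukocytes and -1.09 for T cell markers.

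Markers of immune cells were set beside the members, and their counts differed by cell type. Of all genes tested, 4.37% were lower and 2.20% higher at the p used for these counts. Of 10 markers of all leukocytes tested, 8 were lower in Prmt3LKO tumors at an unadjusted p under 0.05 and 0 higher (edgeR's quasi-likelihood test), with a median log2 fold change of -0.80 and summed levels of 274 to 291 CPM in Prmt3f/f tumors and 161 to 215 CPM in Prmt3LKO tumors. *Ptprc*, the CD45 gene that defines leukocytes, was at 40.96, 39.6 and 39.6 CPM in Prmt3f/f tumors and at 19.1, 23.7 and 25.7 CPM in Prmt3LKO tumors. Of the 10 log2 fold changes, 9 were below 0, and the exception was *Ikzf1* (0.51, SE 0.41). *Lcp1*, with 31.4% of the summed CPM of these markers, had -0.003 (SE 0.26). The groups overlapped for both of these genes. Of 12 T cell markers, 9 were lower and 0 higher, with a median of -1.09 and sums of 34.9 to 43.5 CPM and 8.85 to 23.0 CPM. Among them were *Cd8a* (log2 fold change -1.46, SE 0.32) and *Cd8b1* (-1.10, SE 0.39). The study's protein staining at 26 weeks went the other way, with more CD8+ T cells in Prmt3LKO tumors. The reason for this difference was not tested. From RNA sequencing of tumors of these genotypes, the study itself reported several immune checkpoint genes as lower upon *Prmt3* deletion. Without Prmt3f/f tumor 7 or Prmt3LKO tumor 92 or 94, 5 of the T cell markers were lower, and without tumor 92, 5 of the leukocyte markers were lower and 1 was higher. Tumor 92 had the lowest sum of T cell markers and of all leukocyte markers, as well as the lowest level of 6 members. Tumor 71, the highest for 10 rows of the members, had the lowest sum of the controls for both lists.

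Of 12 macrophage markers, 6 were lower and 0 higher, with sums of 1051 to 1699 CPM in Prmt3f/f tumors and 775 to 1000 CPM in Prmt3LKO tumors, and 3 were lower without Prmt3f/f tumor 66 or Prmt3LKO tumor 93. Of 8 dendritic cell markers 4 were lower, and 2 without Prmt3f/f tumor 7 or 66. Of 11 markers of NK and cytotoxic cells 3 were lower, of 5 neutrophil markers 4 were lower, and of 5 B cell markers 0 were lower. Of 10 endothelial markers 0 were lower and 1 was higher, of 10 stellate cell markers 0 were lower or higher, of 7 cholangiocyte markers 1 was lower, and of 9 hepatocyte markers 0 were lower and 1 was higher (unadjusted p under 0.05, edgeR's quasi-likelihood test). The 3 kidney markers tested were higher in Prmt3LKO tumors, with sums of 2.95 to 4.24 CPM in Prmt3f/f tumors and 9.14 to 12.9 CPM in Prmt3LKO tumors over the whole list. The part of these cells in the levels of the GTPase genes was not tested.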

How the data were processed

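Liver tumors were compared by genotype, 3 of Prmt3f/f and 3 of Prmt3LKO mice, with 1 library each. Paired-end reads were aligned by the authors to GRCm38, and the processing notes of the submitters name bcl2fastq 2.19, HISAT2 2.0.4 and StringTie 1.3.0. The authors deposited whole-number counts per gene, not normalized, and FPKM, which divide the count by gene length and library total. The counting tool's handling of strand and of reads shared by genes is not given in the sources used here. No column of values was left out.

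Counts were filtered with filterByExpr (minimum count 10, minimum total 15), scaled by TMM and entered into edgeR's quasi-likelihood test (edgeR 4.0.16, R 4.3.3), with Benjamini-Hochberg adjustment over 13892 genes. The limits, an adjusted p below 0.05 and a fold of 2 or more up or of 0.5 or less down, are those of the study, whose methods name no test across genes. CPM used TMM-scaled library sizes, and log2 CPM a prior count of 2. Alternatives were DESeq2 1.42.0, limma-voom (limma 3.58.1), edgeR's exact test, library size without TMM, other filters, FPKM with a pseudocount of 1, and each tumor left out. The tests were tried on simulated counts.

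The members, gene lists and markers were chosen with earlier results of these data known. Named were all members, genes of the lists with groups that do not overlap or that define the pathway, the 5 genes most like the members, and markers. Others (*Gm4951*, *Irgq*, *Irgc1*, *Psmb8*, *Tap2*, *B2m*, *H2-K1*, *Isg15*, *Bst2*, *Map1lc3b*, *Spp1*) were chosen after their values were seen. A gene of the lists is not reported here. Promoter windows are from RefSeq (GRCm38.p6), and exon overlaps from GENCODE M21.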

Additional observations from a re-analysis of the deposited data

How the results depend on the processing

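Direction was the same throughout: each of the 11 rows had a log2 fold change below 0 under all 13 alternatives, 143 values in all. The alternatives reuse the same tumors, so these values are not independent. *Iigp1* was at -0.03 without Prmt3f/f tumor 7 (unadjusted p = 0.850, edgeR's quasi-likelihood test). The number of rows past the limits of the study was 0 in the quasi-likelihood test, 2 with DESeq2 and 2 with edgeR's exact test, in both cases *Gbp2* (log2 fold change -1.68 in each) and *Gbp5* (-1.40 in each), and 0 with limma-voom. Of all genes, DESeq2 called 0.310% lower at these limits and edgeR's exact test 0.252%. The number of rows lower at an unadjusted p under 0.05 was 9, with a range of 3 to 9 when each tumor was left out: 3 without Prmt3f/f tumor 71 and 5 without Prmt3LKO tumor 92 or 94. It was 8 or 9 under the other count-based alternatives. The share of all genes lower at that p was 4.37% with all tumors and 2.93% to 5.12% with each tumor left out. Under the other count-based alternatives that share was 3.91% to 4.63%. The median log2 fold change ranged from -0.82 to -0.46 with each tumor left out and was -0.52 on FPKM. With 1 row per gene symbol, an alternative chosen after seeing the data, it was -0.68. No paired analysis was possible because the groups share no replicate numbers. Precision is limited by having 3 tumors a group, and the low counts of *Ifng* limit what can be said of the ligand.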
